A study of Mus musculus with 4 samples.

Results

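The genes followed here, *Pou5f1*, *Utf1*, *Lin28a*, *Lin28b*, *Nr6a1*, *Gdf11*, *Nr2f1*, *Nr2f2* and *Sall4*, take part in the switch of the embryo from building trunk to building tail. They are 9 of the 31055 genes in the count tables and 9 of the 23437 with at least 1 UMI in the cells kept. They were chosen by gene symbol with earlier results of these same libraries in view, to be set against a possible stage difference between the pools, so their levels and differences are a description of these libraries, with no p-value. *Pou5f1* was 4.79-fold lower in female progenitor cells of *Grhl3*-null than of WT embryos, while male cells differed by 1.08-fold in the other direction. *Nr6a1*, *Nr2f1* and *Nr2f2* differed in opposite directions in female and male cells of the neural class.

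The body axis of the embryo is laid down from head to tail by axial progenitors in the tail bud, among them the neuromesodermal progenitors (NMPs) that give rise to both spinal cord and presomitic mesoderm. *Pou5f1* (Oct4), a POU transcription factor of the pluripotent epiblast, is lost from somatic cells as somites form, and prolonging it lengthens the trunk. The nuclear receptor Nr6a1 (GCNF) represses *Pou5f1* after gastrulation and is needed for trunk formation. The RNA-binding proteins Lin28a and Lin28b block maturation of let-7 microRNAs and favour progenitor growth. Gdf11, a TGF-beta family ligand, promotes the switch to tail and the onset of posterior *Hox* genes. Sall4 is a zinc finger factor of stem cells and axial progenitors, Utf1 a chromatin factor of pluripotent and germ cells, and Nr2f1 and Nr2f2 (COUP-TFI and COUP-TFII) are orphan nuclear receptors of differentiating tissue.

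The samples were caudal parts of C57BL/6 embryos from *Grhl3*+/- intercrosses at E8.5 with 6 to 7 somites, either WT or *Grhl3*-null, in which both copies of the grainyhead-like transcription factor gene *Grhl3* carry a null allele. One pool of 5 WT and 1 pool of 3 *Grhl3*-null embryos were each run in 2 reactions, giving WT libraries 1 and 2 and *Grhl3*-null libraries 1 and 2. The 2 libraries of a genotype share their embryos, so the spread between them and every p-value here hold no difference between embryos. Genotype and the age of the pools cannot be told apart. Fewer cells of a state and less RNA per cell cannot be told apart in summed counts either.

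The filters kept 20198 of 24239 cells, between 4781 and 5459 a library, with a median of 33391 to 38070 UMIs per cell. The share of cells kept was 88.2% and 89.8% in WT and 78.4% and 77.4% in *Grhl3*-null. Library pairs shared 7 to 16 cell barcodes. *Grhl3* had 878 and 803 UMIs in WT and 12 and 14 in *Grhl3*-null, in keeping with the labels. Cells were called female from *Xist* and male from Y-linked genes: 63.9% and 63.8% were female in WT against 37.6% and 35.6% in *Grhl3*-null. The number of embryos of each sex was not given. Within a pool, female and male cells come from different embryos, so a split by sex is also a split by embryo.

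Cells fell into 15 classes, named by markers that the study had picked on these libraries. *Nr2f1* and *Nr2f2* are among its markers of intermediate mesoderm, and *Utf1* among those of primordial germ cells. All 9 genes were also among the features used for clustering. Peaks of these genes in the classes they mark are thus not independent of how the classes were made. Class names stayed the same when the 9 genes were left out of the markers. The NMP-like class held 830 and 783 WT and 716 and 672 *Grhl3*-null cells. The pre-somitic-like class held 487 and 463 WT cells but 3 and 4 *Grhl3*-null cells, so it is left out of the counts over classes below. Of its WT cells 479 and 456 were called female and 0 and 1 male. Its WT levels thus stand for female cells nearly alone, and ranking it against other classes also compares different embryos. All levels below are CPM, the UMIs of a gene in all cells of 1 class and library, scaled to the total UMIs of those cells and multiplied by 1e+06. They are compared within a gene only. Counts over classes have no share among all genes beside them and are not read as particular to these genes.

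The Lin28 and let-7 arm of this control can be read in sequence. The RefSeq table (GRCm38.p6) held 10 mature microRNAs with the let-7 seed, bases 2 to 8, and 2 of the miR-196 family, which is encoded in the *Hox* clusters. The seeds are shown in capitals because they overlap with a shift of 1 base, so that one stretch of a 3′ untranslated region can pair with both.
mmu-let-7a-5p: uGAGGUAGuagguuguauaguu
mmu-let-7g-5p: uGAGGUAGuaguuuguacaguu
mmu-miR-98-5p: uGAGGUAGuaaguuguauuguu
mmu-miR-196a-5p: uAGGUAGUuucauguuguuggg
mmu-miR-196b-5p: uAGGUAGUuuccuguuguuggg

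In the longest annotated 3′ untranslated region of *Nr6a1*, 4453 bases, there were 8 matches of 7 bases to the let-7 seed (CTACCTC) and 4 to the miR-196 seed (ACTACCT), and 3 of them overlapped. Of 1345 regions of like length, 23.9% held at least 1 let-7 match and 0.0743% held as many. The latter share is the *Nr6a1* region itself, which was not left out of the set. *Lin28b* (4445 bases) held 4 and 3 matches, *Lin28a* (2775 bases) 2 and 1, *Gdf11* 0 and 1, *Sall4* 1 and 0, and the other 4 genes none. The 3 overlapping sites of *Nr6a1* and the one of *Lin28a* are printed, on the minus strand of GRCm38, with the let-7 match in capitals. The microRNAs themselves were not measured, and a match is a description of letters only.
*Nr6a1*, base 371, chr2:38727441-38727465: caaagacaaCTACCTCaatggaaac
*Nr6a1*, base 1228, chr2:38726584-38726608: ggcattaaaCTACCTCatgtttcta
*Nr6a1*, base 3827, chr2:38723985-38724009: gaaaaaagaCTACCTCttgagtgac
*Lin28a*, base 909, chr4:134005181-134005205: cctgttgaaCTACCTCatttttgcc

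Nr6a1 and the Nr2f factors are known to bind the hormone response core AGGTCA. The *Pou5f1* promoter carried it once, 33 bases before the start on the sense strand (capitals), in the window from 250 bases before to 50 after, of which the bases before the start are printed. Of 32851 promoters, 16.3% held these letters on either strand, and 8 of the 9 genes had a promoter in the table. *Nr6a1* held them in its alternative promoter on the opposite strand.
*Pou5f1* promoter, chr17:35505782-35506031, plus strand: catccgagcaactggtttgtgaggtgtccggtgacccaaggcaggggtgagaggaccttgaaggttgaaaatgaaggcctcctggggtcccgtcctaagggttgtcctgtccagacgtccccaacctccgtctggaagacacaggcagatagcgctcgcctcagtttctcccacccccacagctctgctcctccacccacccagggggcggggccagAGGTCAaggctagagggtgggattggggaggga

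*Pou5f1* (chr17:35506018-35510772, mm10, 9889 UMIs in 4764 cells) was highest in the primordial germ cell-like (PGC-like) class, where WT libraries 1 and 2 gave 448 and 690 CPM and *Grhl3*-null libraries 658 and 632 CPM. That class held 59 cells in all, 14 and 5 of them WT, and the genotypes overlapped. Among somatic classes it was highest in the NMP-like class, with 34.3 and 36.0 CPM in WT and 12.2 and 12.3 CPM in *Grhl3*-null (log2 fold change -1.53 for *Grhl3*-null over WT, edgeR). Both *Grhl3*-null libraries lay below both WT libraries. The level in WT was lower, in this order, in the somitic-like (16.2 ± 1.3 CPM, SD, n = 2), paraxial-like (6.52 ± 0.55) and pre-somitic-like (3.15 ± 0.81) classes.

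Split by sex, the *Pou5f1* difference in NMP-like cells sat in the female cells. They gave 46.1 and 47.6 CPM in WT against 9.18 and 10.4 CPM in *Grhl3*-null. Male cells gave 15.7 and 15.9 CPM in WT against 17.8 and 16.3 CPM in *Grhl3*-null. WT female cells thus stood above the other 3 groups, which lay between 9.18 and 17.8 CPM. The log2 fold change was -2.30 in female and 0.12 in male cells, and the difference of the 2, fitted in 1 model, was -2.41 ± 0.14 (SE).

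WT female cells were also the highest group for *Pou5f1* in the somitic-like and surface ectoderm/border-like classes. Somitic-like female cells gave 24.6 and 20.7 CPM of *Pou5f1* in WT against 5.16 and 2.94 CPM in *Grhl3*-null, and male cells 7.37 and 8.46 against 7.74 and 7.88 CPM. Surface ectoderm/border-like female cells gave 15.4 and 23.8 against 3.6 and 2.08 CPM, and male cells 6.2 and 5.58 against 7.67 and 7.5 CPM. In the *Lefty2* cluster, an unnamed class led by *Lefty2*, all cells together gave 25.4 and 25.7 CPM in WT and 0.658 and 2.63 CPM in *Grhl3*-null. Among neuroepithelium-like cells the highest group was instead WT male cells, at 18.1 and 12.1 CPM against 5.04 and 3.17 CPM in WT female cells. Over 14 classes the *Grhl3*-null libraries lay below WT in 10, above in 0 and overlapped in 4. The 10 include the endothelium-like class, which should lack the gene, at 3.11 and 4.17 against 2.91 and 2.86 CPM. Gut-like cells (2.74 and 2.39 against 1.74 and 1.65 CPM) and erythroid-like cells (2.28 and 1.51 against 1.02 and 1.28 CPM) lay under those levels. Nothing is read from this count.

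**Figure D1:**
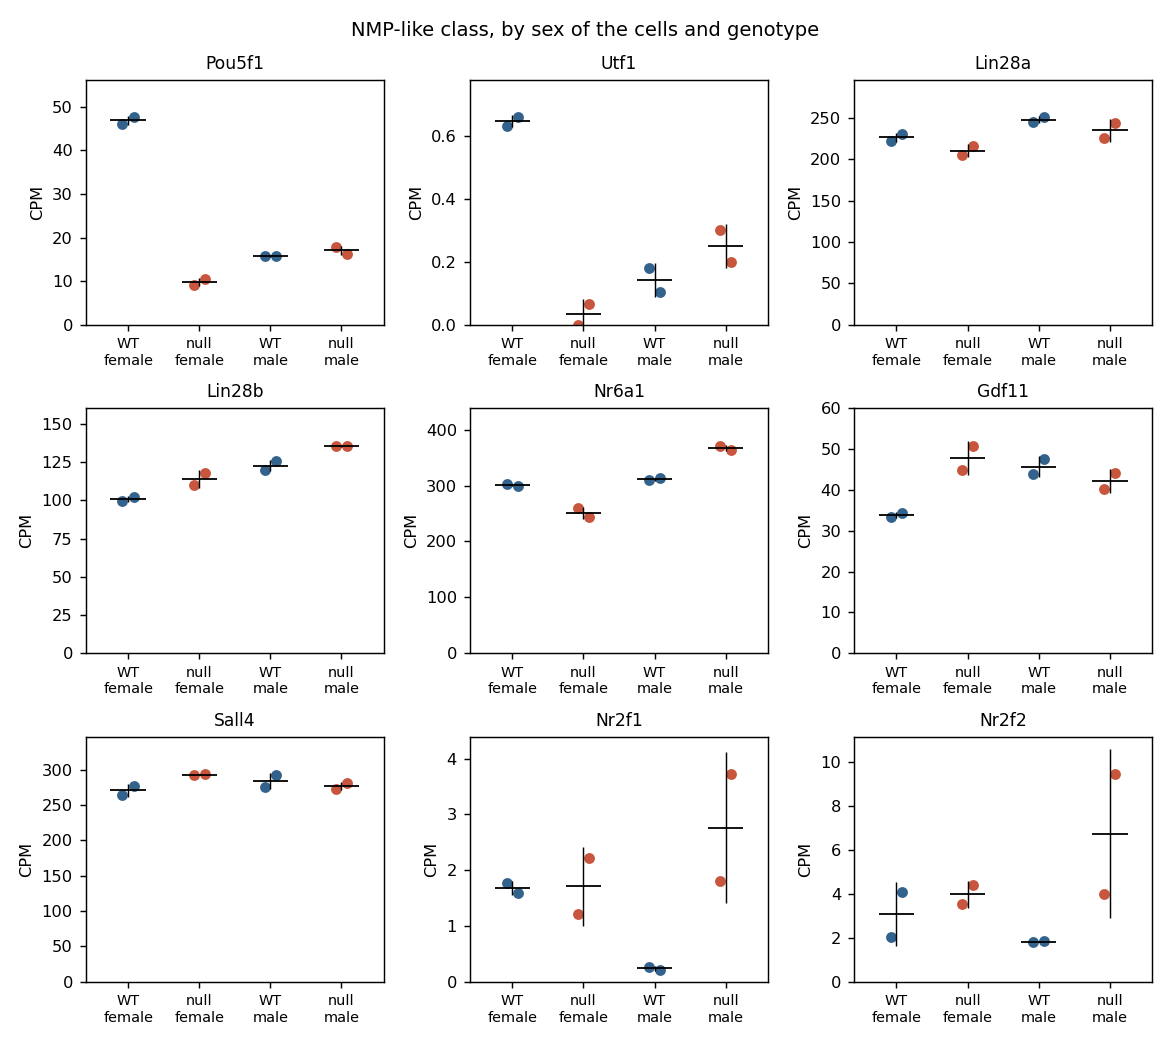
CPM of each of the 9 genes (vertical axis, from 0) in the NMP-like class, for WT female, *Grhl3*-null female, WT male and *Grhl3*-null male cells; each point is a library, the horizontal bar is the mean of 2 and the vertical line its SD. WT female cells stand apart for *Pou5f1*, at 46.1 and 47.6 CPM, while *Lin28a* and *Sall4* lie close together in all 4 groups.

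The share of NMP-like cells with *Pou5f1* differed in the same way. With each cell thinned to 7500 UMIs, a *Pou5f1* UMI was found in 27.7% and 26.2% of WT female cells (95% Clopper-Pearson 23.7 to 31.9% and 22.3 to 30.4%, counting error only) but in 5.53% and 8.11% of *Grhl3*-null female cells. Male cells gave 8.65% and 10.2% in WT and 12.0% and 13.4% in *Grhl3*-null. Without thinning the shares were 63.0% and 59.7%, 33.2% and 34.2%, 39.1% and 36.9%, and 47.0% and 42.3% in the same order, at median depths of 33079 to 40650.5 UMIs. The endothelium-like class, which should lack the gene, gave 1.56% to 3.23% thinned and 11.2% to 18.1% unthinned at median depths of 35643 to 39227.5 UMIs, below every NMP-like group. In its female cells alone the thinned share was 1.94% to 3.70%. The interval of the lowest NMP-like group, 3.45 to 8.32% in *Grhl3*-null library 1 female cells, overlapped those of the endothelium-like libraries, of which the highest reached 7.37%.

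*Utf1* (chr7:139943789-139945112, 841 UMIs in all) was highest in germ cells. The PGC-like class gave 231 and 181 CPM in WT and 169 and 176 CPM in *Grhl3*-null, followed by the surface ectoderm/border-like class with 5.42 and 4.02 against 4.84 and 4.26 CPM. In the NMP-like class it had 34 UMIs over both WT and 9 over both *Grhl3*-null libraries, or 0.448 and 0.466 against 0.113 and 0.167 CPM. There were 76.9 *Pou5f1* UMIs for each *Utf1* UMI in WT NMP-like cells, but 2.37 in the PGC-like and 3.34 in the surface ectoderm/border-like cells of WT. *Dppa3*, a defining germ cell gene, had 7, 4, 5 and 4 UMIs in the NMP-like class of the 4 libraries and 386, 144, 541 and 799 in the PGC-like class. The 15 germ cell genes summed to 462 and 464 CPM in WT and 511 and 489 CPM in *Grhl3*-null NMP-like cells. In female cells alone that sum was 410 and 412 CPM in WT and 534 and 550 CPM in *Grhl3*-null. Male cells gave the opposite direction, 514 and 498 CPM in WT and 372 and 353 CPM in *Grhl3*-null. Only 6 of the 15 genes passed the count filter in this class, and *Dppa3* adds little to the sums. They are therefore not read as germ cell content.

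*Nr6a1* (chr2:38723370-38927688, 141223 UMIs) was highest in the NMP-like class, with 308 and 301 CPM in WT and 302 and 296 CPM in *Grhl3*-null, where the genotypes overlapped. In WT it was next highest in the somitic-like class (183 ± 2.1 CPM, n = 2) and among the lowest in the pre-somitic-like class (36.8 ± 3.8 CPM). The even totals in the NMP-like class hid opposite differences by sex. Female cells gave 302 and 299 CPM in WT against 259 and 244 in *Grhl3*-null, whereas male cells gave 309 and 313 against 371 and 363 CPM. In somitic-like cells the split was the same, 198 and 190 against 142 and 140 CPM in female cells and 159 and 174 against 194 and 209 CPM in male cells.

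*Nr6a1* split the other way in the neuroepithelium-like class. Over all cells it was 148 and 153 CPM in WT and 229 and 235 CPM in *Grhl3*-null (log2 fold change 0.60). Female cells gave 103 and 93.2 CPM in WT against 283 and 298 CPM in *Grhl3*-null, and male cells 345 and 337 CPM in WT against 216 and 217 CPM in *Grhl3*-null. The log2 fold change was 1.52 in female and -0.61 in male cells, a difference of 2.13 ± 0.07 (SE). The class was uneven in sex, with 451 and 395 female and 62 and 72 male cells in WT against 88 and 84 female and 419 and 472 male cells in *Grhl3*-null.

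*Lin28a* (chr4:134003330-134018841) and *Lin28b* (chr10:45376620-45486395), both RNA-binding blockers of let-7, were highest in WT in the NMP-like class. *Lin28a* gave 230 and 238 CPM in WT and 215 and 225 CPM in *Grhl3*-null there, and *Lin28b* 105 and 109 against 119 and 124 CPM. The differences were small and opposite (log2 fold change -0.11 and 0.17), with no overlap of libraries. *Lin28b* was higher in *Grhl3*-null in 11 of 14 classes, lower in 2 and overlapping in 1, with log2 fold changes from 0.12 to 0.53 where it was higher. *Lin28a* was lower in 5, higher in 2 and overlapping in 7. Neuroepithelium-like cells had less *Lin28a* in *Grhl3*-null, 115 and 118 against 142 and 151 CPM in WT.

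*Gdf11* (chr10:128882295-128891718) was highest in the WT pre-somitic-like class, whose cells were nearly all female, at 67.8 and 66.1 CPM. It was next in the somitic-like (39.8 ± 0.70 CPM, n = 2) and NMP-like classes, which held both sexes. In the NMP-like class it was 37.9 and 38.6 CPM in WT and 43.6 and 47.3 CPM in *Grhl3*-null. Female cells carried that difference, with 33.3 and 34.4 against 44.9 and 50.9 CPM. Male cells overlapped, with 43.8 and 47.5 against 40.1 and 44.2 CPM. WT female cells were the low group, as they were the high group for *Pou5f1*. Neuroepithelium-like cells had less *Gdf11* in *Grhl3*-null, 24.9 and 25.1 against 34.6 and 34.1 CPM in WT (log2 fold change -0.48).

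*Sall4* (chr2:168748332-168767943) was highest in the PGC-like class (319 and 356 against 360 and 418 CPM). It differed by 0.02 on the log2 scale in the NMP-like class, at 270 and 279 CPM in WT and 280 and 283 CPM in *Grhl3*-null. It was lower in *Grhl3*-null in 8 of 14 classes, most in Mesenchyme 2-like cells, where it was 203 and 214 CPM in WT and 119 and 130 CPM in *Grhl3*-null. The same held in the neuroepithelium-like class (209 and 217 against 164 and 163 CPM).

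*Nr2f1* (chr13:78188973-78199757) and *Nr2f2* (chr7:70351944-70366735) were both highest in the intermediate mesoderm-like class, *Nr2f1* at 115 and 131 CPM in WT and 133 and 146 in *Grhl3*-null, and *Nr2f2* at 154 and 174 against 149 and 138 CPM. In the NMP-like class they were at 1.92 to 5.53 and 3.58 to 7.70 CPM. The endothelium-like class held 4.58 to 7.57 CPM of *Nr2f1*, and the erythroid-like class 1.02 to 5.21 CPM of *Nr2f2*, so the NMP-like levels of *Nr2f1* and the WT levels of *Nr2f2* are not read as expression. In 7 other classes both libraries of a genotype exceeded that background for *Nr2f1*, and it was higher in *Grhl3*-null in 7 of them. The *Lefty2* cluster, Notochord-like and Mesenchyme 1-like classes passed only through their *Grhl3*-null libraries, so they could not have come out lower there. For *Nr2f2* there were 12 such classes, with *Grhl3*-null higher in 11 and lower in 1. Among these the NMP-like class passed only through *Grhl3*-null. Nothing is read from these counts.

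*Nr2f1* in neuroepithelium-like cells was 12.0 and 13.3 CPM in WT and 46.2 and 46.5 CPM in *Grhl3*-null (log2 fold change 1.85). Male cells carried that difference, with 4.36 and 6.92 CPM in WT against 53.7 and 55.5 CPM in *Grhl3*-null. Female cells gave 13.4 and 15.3 against 5.71 and 9.58 CPM, the opposite direction. In Mesenchyme 2-like cells *Nr2f1* gave 27.3 and 26.3 against 170 and 181 CPM in male cells but 70.9 and 58.4 against 35.4 and 29.8 CPM in female cells. *Nr2f2* split the same way in the neuroepithelium-like class, with 10.9 and 8.4 against 28.6 and 25.7 CPM in male and 17.3 and 16.9 against 8.05 and 10.1 CPM in female cells. In both classes the male *Grhl3*-null cells were the highest group for *Nr2f1*. Finer clusters (resolution 0.8 in place of 0.4) shrank the log2 fold changes of the neuroepithelium-like class, from 1.85 to 1.24 for *Nr2f1*, 0.67 to 0.13 for *Nr2f2*, 0.60 to 0.10 for *Nr6a1*, -0.48 to -0.11 for *Gdf11*, -0.41 to -0.14 for *Sall4* and -0.35 to -0.12 for *Lin28a*.

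**Figure D2:**
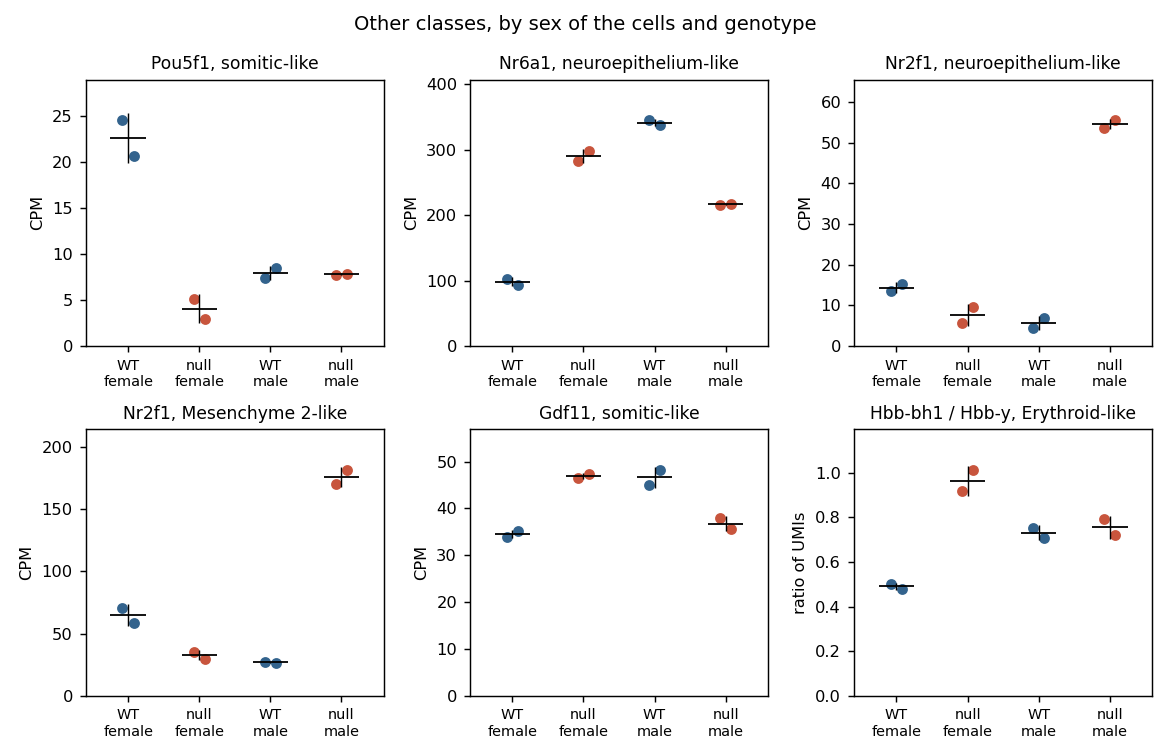
The same 4 groups in other classes, with CPM on the vertical axis from 0 (the last panel plots the ratio of *Hbb-bh1* to *Hbb-y* UMIs in erythroid-like cells); points are libraries, bars the mean of 2 and lines the SD. *Nr6a1* in the neuroepithelium-like class runs from 93.2 CPM in WT female to 345 CPM in WT male cells, with both *Grhl3*-null groups between.

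**Figure D3:**
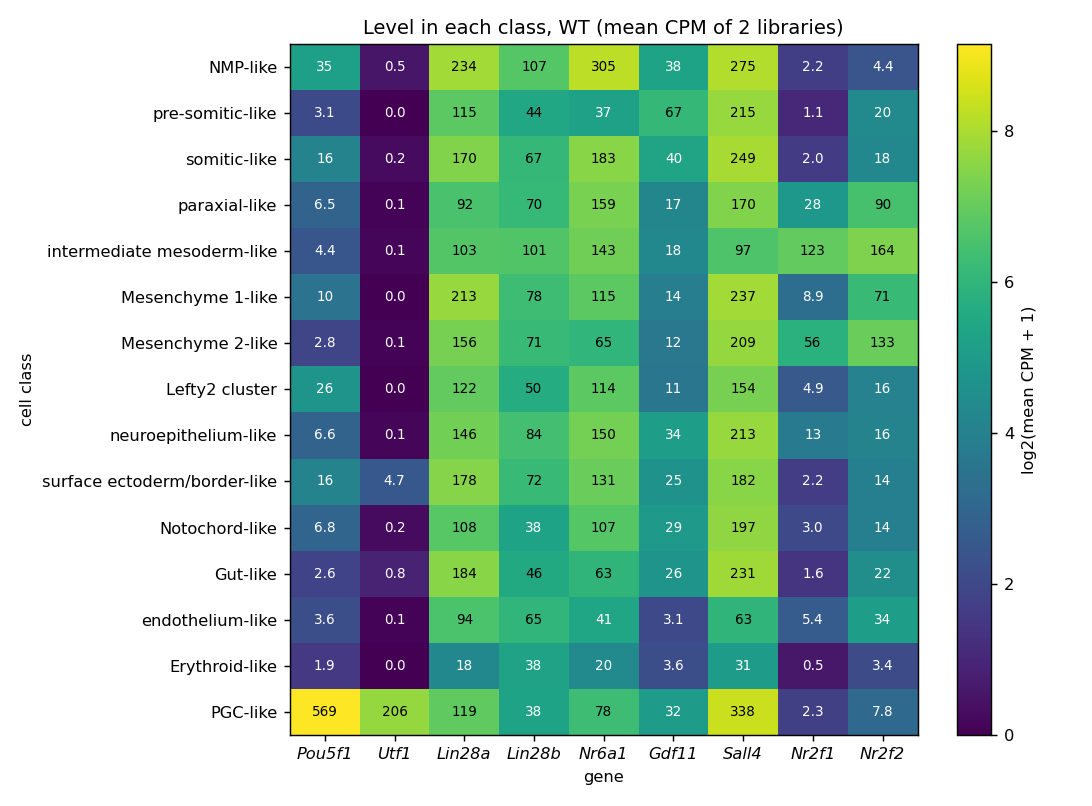
Mean CPM of the 2 WT libraries for each gene (columns) in each of the 15 classes (rows), coloured by log2 of the mean plus 1; colours are to be read down a column, since tags are not corrected for gene features. *Lin28a*, *Lin28b* and *Nr6a1* peak in the NMP-like row, *Gdf11* in the pre-somitic-like row, *Pou5f1*, *Utf1* and *Sall4* in the PGC-like row and both *Nr2f* genes in the intermediate mesoderm-like row.

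**Figure D4:**
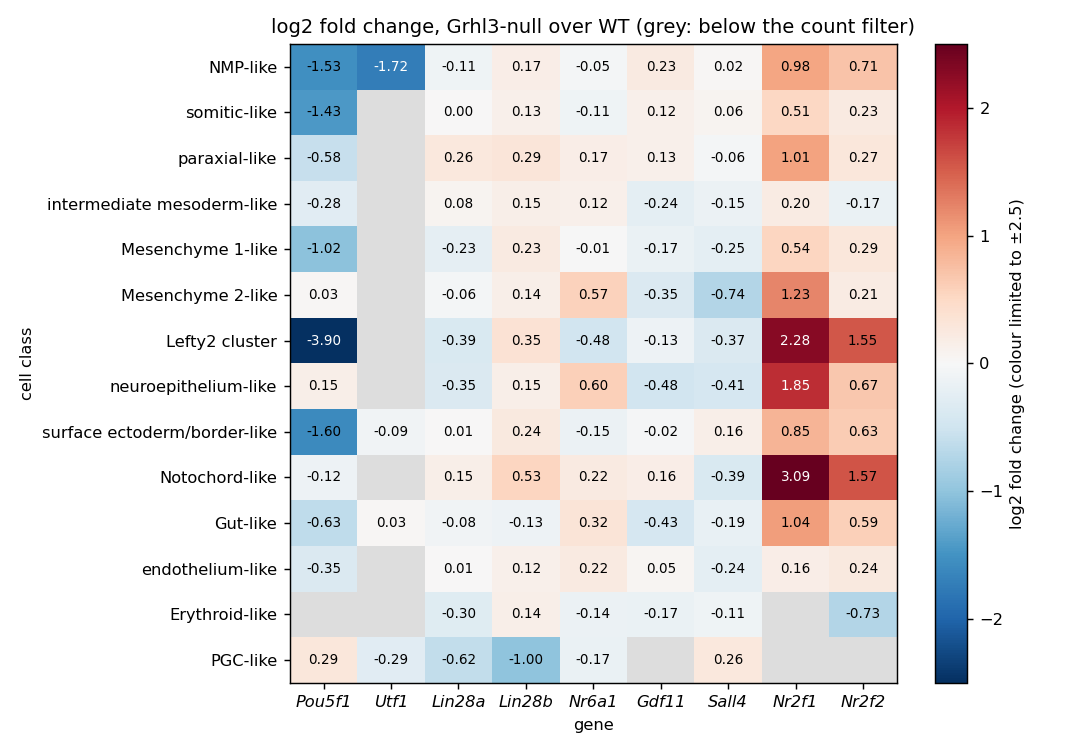
Log2 fold change of *Grhl3*-null over WT (edgeR) for each gene (columns) in 14 classes (rows), the pre-somitic-like class left out for its 7 *Grhl3*-null cells; grey cells did not pass the count filter. *Pou5f1* is lowest in the *Lefty2* cluster, at -3.90, and *Nr2f1* is highest in the Notochord-like class, at 3.09.

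Of the 9 genes, all passed the count filter in the NMP-like class, and 4 were called higher and 3 lower in *Grhl3*-null. Over all genes tested there, 7.71% were called higher and 10.8% lower. In 8 of the 9 the libraries of the genotypes did not overlap, as in 57.2% of all genes with at least 20 UMIs. In female cells 2 were called higher and 4 lower (all genes 10.3% and 12.7%). In male cells, where 8 passed the filter, 3 were called higher and 0 lower (2.11% and 2.14%). Of the 9, 8 passed in neuroepithelium-like cells, with 4 higher and 3 lower (11.1% and 12.8%). Since the genes were selected on these libraries, nothing is read from these counts.

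Posterior *Hox* genes were used to place cells along the transition by a measure that is not one of the 9 genes. Cells were thinned to 7500 UMIs and split by whether they held a UMI of *Hox* groups 10 to 13, which come on as the tail forms. In the NMP-like class 72 and 77 WT cells did, and 15 and 14 *Grhl3*-null cells. *Nr6a1* was 194, 175, 240 and 257 CPM in those cells of the 4 libraries, WT first, and 315, 308, 294 and 284 CPM in the rest. It was lower in 4 of 4 libraries (mean log2 ratio -0.48 ± 0.32, SD). No p-value is given for these splits, because a two-sided exact sign-flip test over 4 libraries cannot give a p under 0.13.

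*Gdf11* went the other way, with 53.7, 57.1, 44.4 and 76.2 CPM in the *Hox*-positive and 38.3, 36.4, 37.9 and 45.0 CPM in the *Hox*-negative NMP-like cells, higher in 4 of 4. *Pou5f1* was lower in 4 of 4, at 9.26, 13.9, 0 and 9.52 against 36.2, 37.2, 12.4 and 15.0 CPM. The *Hox*-positive values rest on 5, 8, 0 and 1 UMIs. With all UMIs, *Hox*-positive female and male cells gave 5.34 and 0 CPM in *Grhl3*-null library 1 and 10.5 and 38.5 CPM in library 2. The *Hox*-negative cells gave 9.26 and 18.1 CPM and 10.4 and 16.1 CPM in the same order. In *Grhl3*-null library 2 *Pou5f1* was thus not lower, so 4 of 4 holds for thinned cells only. *Sall4* was higher in 4 of 4 (mean log2 ratio 0.29 ± 0.26). *Lin28a* and *Lin28b* were each higher in 2 libraries and lower in 2.

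Among neuroepithelium-like cells 189 and 188 of WT were *Hox*-positive but only 6 and 5 *Grhl3*-null cells, so the WT libraries carry the comparison. *Nr6a1* was 45.9 and 45.4 CPM in *Hox*-positive and 183 and 199 CPM in *Hox*-negative WT cells. *Lin28a* (190 and 187 against 107 and 119 CPM), *Gdf11* (48.7 and 48.2 against 29.9 and 23.6 CPM) and *Sall4* (304 and 299 against 156 and 180 CPM) were higher in the *Hox*-positive cells. *Nr2f1* (1.41 and 0.709 against 19.5 and 23.6 CPM) and *Nr2f2* (3.53 and 7.80 against 22.6 and 26.2 CPM) were lower. In somitic-like cells *Gdf11* had the opposite direction, lower in the *Hox*-positive cells in 4 of 4 libraries (mean log2 ratio -0.88 ± 0.70), while *Nr6a1* was again lower in 4 of 4 (-0.81 ± 0.28) and *Sall4* higher in 4 of 4 (0.58 ± 0.14).

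**Figure D5:**
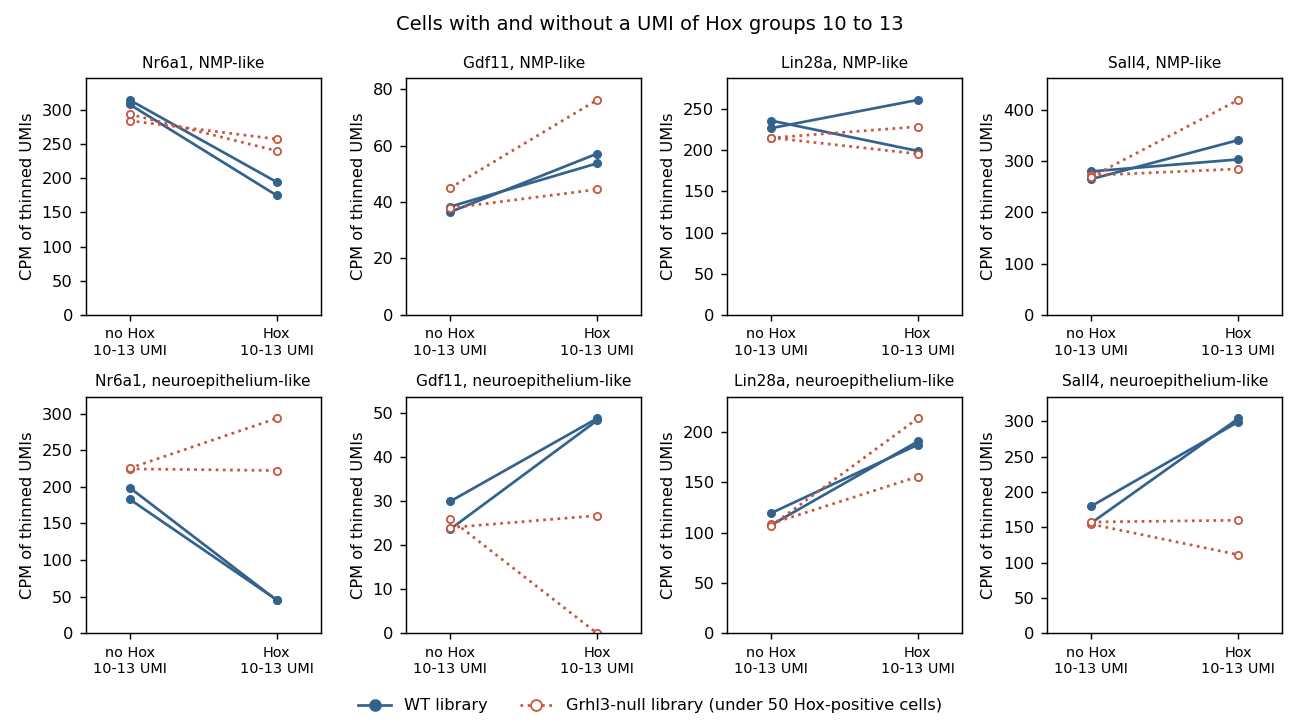
CPM of thinned UMIs (vertical axis, from 0) in cells without and with a UMI of *Hox* groups 10 to 13, for 4 genes in 2 classes; each line joins the 2 values of a library, and dotted lines with open points mark *Grhl3*-null libraries, which held under 50 *Hox*-positive cells. *Nr6a1* is lower in *Hox*-positive cells in all 4 libraries of the NMP-like class, and is 45.9 and 45.4 against 183 and 199 CPM in WT neuroepithelium-like cells.

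The *Hox*-positive cells of the neuroepithelium-like class made up 41.2% and 46.6% of the WT female cells, 3.23% and 0% of the WT male cells, 2.27% and 1.19% of the *Grhl3*-null female cells and 0.716% and 0.424% of the *Grhl3*-null male cells. The 0% is of 72 cells, which allows up to 4.17%. Without these cells, and with all UMIs counted, *Nr6a1* was 196.3 and 209 CPM in WT against 229 and 236 CPM in *Grhl3*-null, and *Sall4* 170 and 177 against 163 and 163 CPM. *Gdf11* was 27.2 and 25.9 against 25.0 and 25.1 CPM. *Lin28a*, lower in *Grhl3*-null over the whole class, overlapped at 116 and 125 against 115 and 118 CPM. *Nr2f1* still differed, at 17.0 and 19.8 against 46.4 and 46.6 CPM. Sexes still differed too: *Nr6a1* was 142 and 135 CPM in WT female, 282 and 297 in *Grhl3*-null female, 342 and 337 in WT male and 216 and 217 CPM in *Grhl3*-null male cells.

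Lists of related genes, which hold none of the 9, were tested in the fit across all genes (edgeR's quasi-likelihood test, Benjamini-Hochberg adjustment). Over all genes 7.71% were called higher and 10.8% lower in *Grhl3*-null in the NMP-like class. In the neuroepithelium-like class these shares were 11.1% and 12.8%, and the list counts below are to be set against them. Of 24 epiblast and pluripotency genes 13 passed the filter in the NMP-like class, and 9 fell and 0 rose in *Grhl3*-null (median log2 fold change -0.62, against 0.00 for all genes). *Eras*, a Ras family gene of pluripotent cells, fell from 1.48 and 1.94 to 0.226 and 0.233 CPM (-2.89 ± 0.32, SE, adjusted p = 0.00013). *Cdh1*, the epithelial cadherin, fell by 1.07 on the log2 scale (adjusted p = 0.00026). In female cells 10 of 13 fell and 1 rose (12.7% and 10.3% of all genes). In male cells, where calls were fewer among all genes (2.14% lower and 2.11% higher), 0 of 11 fell and 1 rose.

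The genotype-by-sex term, fitted in 1 edgeR model, was negative and called for 9 of 13 of these epiblast genes and positive for 1, against 7.74% and 5.98% of all genes. The 3 largest were *Eras* (-3.55 ± 1.03, adjusted p = 0.017), *Cdh1* (-2.83 ± 0.33, adjusted p = 1e-07) and *Slc7a3*, an amino acid transporter (-2.26 ± 0.31, adjusted p = 2e-06). The positive one was *Fgf4*, a growth factor (1.35 ± 0.23, adjusted p = 8.7e-05). The term went the other way in the neuroepithelium-like class, positive and called for 5 of 10 of these genes and negative for 0, against 13.4% and 16% of all genes. In the fit over both sexes, of the 13 tested in neuroepithelium-like cells 3 were higher and 0 lower in *Grhl3*-null, among them *Pou3f1* (log2 fold change 0.82 ± 0.08) and *Epcam* (0.64 ± 0.15).

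Of 20 genes of the Lin28 and let-7 axis tested in the NMP-like class, 6 rose and 1 fell, by little. *Myc* (28.4 and 29.0 to 34.8 and 34.0 CPM), *Dgcr8*, a microRNA processing gene, and *Ccnd2* rose by 0.24, 0.24 and 0.17 on the log2 scale, and *Trim71*, a let-7 target of stem cells, fell by 0.20 (adjusted p = 0.011). Neuroepithelium-like cells gave 2 rises and 3 falls of 20. The genotype-by-sex term in that class was positive and called for 7 of the 20 and negative for 2 (13.4% and 16% of all genes). *Ccnd2*, cyclin D2, rose by 0.72 there (adjusted p = 3.7e-12), while *Ccnd1*, cyclin D1, fell by 0.40 (adjusted p = 8.3e-08), *Arid3b* by 0.32 and *Hmga2*, the classical let-7 target, by 0.21.

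Among 15 Gdf11 signalling genes in the NMP-like class 3 rose and 3 fell. *Fst*, follistatin, which binds and blocks Gdf11 and activins, fell from 63.9 and 68.1 to 20.4 and 19.9 CPM (-1.73 ± 0.05, adjusted p = 3.6e-10). It too fell in female cells, from 85.8 and 90.6 to 14.3 and 15.5 CPM, while male cells gave 24.3 and 27.5 against 24.3 and 22.0 CPM (adjusted p = 0.46). Its genotype-by-sex term was -2.45 ± 0.12 (adjusted p = 1.9e-16). *Pcsk5*, a convertase of the Gdf11 precursor, and *Wfikkn1*, a Gdf11 inhibitor, fell by 0.36 and 0.31, and the pathway genes *Smad7*, *Tgfbr1* and *Smad4* rose by 0.20, 0.18 and 0.14. Neuroepithelium-like cells gave 4 rises and 3 falls of 15, among them *Isl1* (1.05 ± 0.26), *Wfikkn1* (0.57 ± 0.09) and *Fst* (0.45 ± 0.08) higher and *Smad7* lower (-0.73 ± 0.08).

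*Hox* genes of groups 10 to 13 fell in the NMP-like class in 4 of 6 tested and rose in 1. *Hoxc10* fell from 10.6 and 12.5 to 1.35 and 1.37 CPM (-3.10 ± 0.14, adjusted p = 7.8e-08), *Hoxd10* by 2.82 and *Hoxa10* by 2.73, while *Hoxb13* rose by 1.44 at under 0.5 CPM (adjusted p = 0.037). *Hoxc10* fell in both sexes, by 2.51 in female and 2.85 in male cells, and its genotype-by-sex term was 0.37 ± 0.40 (adjusted p = 0.63). Of 15 *Hox* genes of groups 5 to 9, 7 rose and 2 fell there, led by *Hoxa9* (0.36), *Hoxc8* (0.34) and *Hoxb9* (0.34). In female cells 8 of 15 rose and 0 fell (10.3% and 12.7% of all genes). In male cells 3 of 14 rose and 3 fell (2.11% and 2.14%). Among neuroepithelium-like cells 4 of 4 of groups 10 to 13 and 11 of 15 of groups 5 to 9 fell and 1 of the latter rose, with *Hoxc10* going from 136 and 143 to 0.579 and 0.114 CPM.

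Axial progenitor genes, of which several are also markers used to name the NMP-like class, fell in 6 of 16 and rose in 2 there, with *Cdx1*, a caudal homeobox gene, lower by 0.56 and *Sp5*, a Wnt target, by 0.38. That count joins unlike sexes. In female cells 7 of 15 rose and 4 fell (10.3% and 12.7% of all genes). In male cells 1 of 15 rose and 8 fell (2.11% and 2.14%). The genotype-by-sex term was positive and called for 8 of 15 and negative for 4 (5.98% and 7.74%). Of the axial genes 12 of 15 fell and 1 rose in neuroepithelium-like cells, led by *Fgf17* (-2.73), *Fgf8* (-2.15) and *Cyp26a1* (-2.09), the retinoic acid degrading enzyme. Retinoic acid response genes there rose in 10 of 14 and fell in 3. *Aldh1a2*, which makes retinoic acid, went from 31.1 and 22.2 to 65.7 and 66.2 CPM (1.28 ± 0.08, adjusted p = 2.3e-09), and *Rarb* and *Crabp1* rose by 1.08 and 1.01. In the NMP-like class 3 of 14 rose and 3 fell, with *Aldh1a2* at 0.67 and *Dhrs3* at -0.61. Related nuclear receptors and *Sall* genes that were called changed by at most 0.27 in either class, 2 of 6 rising and 1 falling in the NMP-like class (*Nr2c2* 0.19, *Sall1* 0.19, *Nr2f6* -0.15), and 3 of 6 rising and 1 falling in the neuroepithelium-like class. In the pre-somitic-like class 18 of 110 list genes fell and 0 rose (against 0.825% lower and 0.417% higher among all genes), with 7 *Grhl3*-null cells behind those values.

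Other measures were set beside these differences, and they did not all move with them. The globin ratio of *Hbb-bh1* to *Hbb-y*, embryonic haemoglobins that switch as primitive red cells mature, was 0.556 and 0.537 in WT and 0.856 and 0.826 in *Grhl3*-null erythroid-like cells. It was 0.502 and 0.479 against 0.917 and 1.01 in female and 0.755 and 0.708 against 0.792 and 0.720 in male cells. WT female cells stood apart as the lowest group for this ratio, whereas they were the highest for *Pou5f1* in NMP-like cells. Male cells overlapped. In the NMP-like class haemoglobin genes gave 1 rise and 1 fall among 5 tested. Genes of the dissociation response summed to 136 and 143 CPM in WT and 129 and 131 CPM in *Grhl3*-null NMP-like cells, with 4 of 10 lower and 0 higher (*Fosb* -2.5, *Fos* -1.44, *Egr1* -0.96), and germ cell genes gave 1 rise, *Ifitm3* (0.23), among 6. In the neuroepithelium-like class 0 of 5 haemoglobin and 0 of 11 dissociation genes rose and 1 and 4 fell, and 3 of 8 germ cell genes rose and 1 fell. The part of pool age, sex, embryo and RNA quality in the differences of the 9 genes was not tested.

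Across the 15 classes the genes fell into sets with alike patterns (Pearson r of log2 mean CPM plus 1 over the 4 libraries, a description over 15 classes that share libraries). *Utf1* and *Pou5f1* had r = 0.86, *Nr2f1* and *Nr2f2* 0.81, *Sall4* and *Gdf11* 0.79, *Sall4* and *Lin28a* 0.78, and *Gdf11* and *Nr6a1* 0.77. These r and those below include the pre-somitic-like class, where 7 *Grhl3*-null cells weigh as much as all WT cells. There *Gdf11* was 67.0 CPM in WT but 35.3 CPM over the 4 libraries, and *Nr6a1* 36.8 but 73.0 CPM. Of 10068 genes compared, the 3 most alike were *L3mbtl2*, *Gtpbp6* and *2310061I04Rik* for *Pou5f1* (highest r 0.943), and *Gm32585*, *Dppa3* and *Slc30a2* for *Utf1* (0.993). For *Lin28a* they were *Trim71*, *Adnp2* and *Xpo1* (0.928), and for *Lin28b* *Rbm28*, *Chaf1a* and *Ipo7* (0.912). *Nr6a1* had *Scn8a*, *Psip1* and *Pcbp3* (0.924), *Gdf11* had *Tnfrsf19*, *Sp4* and *Hoxa3* (0.911), and *Sall4* had *Gm46430*, *Rogdi* and *Dhx40* (0.907). *Nr2f1* had *Rdh10*, *Sobp* and *Grem1* (0.876), and *Nr2f2* had *Col26a1*, *Tshz2* and *Meis1* (0.899).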

How the data were processed

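The authors deposited UMI counts per gene and cell, made with Cell Ranger from 10x 3′ reads aligned to mm10, before their own filters. The 2 WT and 2 *Grhl3*-null libraries were grouped by their titles. Cells needed at least 3000 genes, 7500 UMIs and at most 7% mitochondrial UMIs, after which a library held 209833527 to 226723903 UMIs. Clusters came from Seurat 5.3.0 with sctransform 0.4.2 in R 4.3.3, without integration (3000 features, 30 components, 20 neighbours, resolution 0.4). A cluster took a name from the study's 15 markers per cell type, if at least 3 were among its 30 leading genes, over 1.5 times as many as for the next type. The highest 5% of Scrublet scores (scanpy 1.11.5) were removed as doublets only in an alternative. A female cell had at least 3 *Xist* and at most 1 Y-linked UMI, and a male cell at least 2 Y-linked and at most 2 *Xist* UMIs.

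Counts were summed per class and library and fitted with edgeR 4.0.16 (TMM, filterByExpr, quasi-likelihood), genotype only, all 4 libraries, calls at an adjusted p under 0.05. In simulated counts of the NMP-like class it recovered 200 of 200 changed genes with 10 wrong calls. In those of the pre-somitic-like class it recovered 100 of 200 with 1 wrong call. The planted changes were large and lay in well-counted genes, so recovery of small differences was not tested. Replicate libraries were not duplicates: in NMP-like cells the chi-square of their counts, divided by its degrees of freedom, was 2.47 in WT and 4.59 in *Grhl3*-null. Thinned shares have Clopper-Pearson intervals, and a count of 0 allows 3. The 9 genes, the lists and the tests were chosen with earlier results of these data known. From each list the text names the 3 called genes with the largest rise and the 3 with the largest fall, or fewer, and for each of the 9 genes the 3 with the most similar pattern. The genotype-by-sex term was added after the data were seen, and genes were named by the same rule. Alternatives covered DESeq2 1.42.0, filters, clustering, thinning, sex and left-out libraries. Sequences came from RefSeq GRCm38.p6 tables and GENCODE annotation of GRCm38. Protein sequences were not used here. Of the list genes that the rule names, 1 is not reported here.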

Additional observations from a re-analysis of the deposited data

Results flagged for a closer look

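For 30 of 81 pairs of gene and class, both *Grhl3*-null libraries moved one way from WT in female cells and the opposite way in male cells. The values are log2 ratios of mean CPM plus 1, *Grhl3*-null over WT. No p is given for these differences, which were not tested because the genes were chosen with these data in view. Female and male cells also come from different embryos. The share among all genes was not computed, so the count of 30 has no background. In the NMP-like class the genotypes' libraries did not overlap for 57.2% of genes with at least 20 UMIs. The genotype-by-sex term was called for 13.7% of all genes there and for 29.4% in the neuroepithelium-like class. Opposite directions are thus not read as particular to these genes.

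The female and male ratios in the NMP-like class were -2.15 and 0.11 for *Pou5f1*, -0.26 and 0.24 for *Nr6a1*, and -0.67 and 0.13 for *Utf1*, which was under 1 CPM. In the neuroepithelium-like class they were 0.59 and -0.96 for *Pou5f1*, 1.56 and -0.65 for *Nr6a1*, -0.83 and 3.07 for *Nr2f1*, -0.84 and 1.40 for *Nr2f2*, and 0.61 and -0.39 for *Lin28b*. In the somitic-like class they were -0.46 and 0.27 for *Nr6a1*, 0.43 and -0.34 for *Gdf11*, and -0.16 and 0.42 for *Nr2f1*. In the Mesenchyme 2-like class they were -0.97 and 2.67 for *Nr2f1*, -0.66 and 1.29 for *Nr2f2*, 0.27 and -0.53 for *Lin28a*, -0.09 and 0.24 for *Lin28b*, and -0.64 and 0.57 for *Gdf11*.

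The surface ectoderm/border-like class gave -2.42 and 0.32 for *Pou5f1*, -0.39 and 0.18 for *Nr6a1*, 0.41 and -0.48 for *Gdf11*, -0.75 and 2.39 for *Nr2f1*, and 0.49 and -0.16 for *Sall4*. Paraxial-like cells gave 0.38 and -0.31 for *Lin28a*, 0.40 and -0.25 for *Nr6a1*, -0.15 and 0.74 for *Nr2f2*, and 0.25 and -0.24 for *Sall4*. Mesenchyme 1-like cells gave -0.16 and 0.16 for *Nr6a1*, 0.27 and -0.47 for *Gdf11*, and -0.46 and 2.11 for *Nr2f1*. *Lin28a* had 0.33 and -0.31 in endothelium-like cells, and *Nr2f2* had -0.37 and 1.36 in Gut-like cells. The *Nr2f1* levels of the somitic-like class lay under those of the endothelium-like class, which serves as background. Over all cells, *Nr2f1* in the surface ectoderm/border-like class was 1.43 to 5.04 CPM. It did not exceed that background of 4.58 to 7.57 CPM either.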

How the results depend on the processing

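Of 236 alternative values for 17 log2 fold changes of the 9 genes, 163 moved by less than the spread between replicate libraries, 62 moved further and 11 changed sign where the genotypes' libraries did not overlap over all cells. Of the 62, 3 also changed sign, *Nr6a1* in male NMP-like cells (0.25) and *Pou5f1* in the neuroepithelium-like class in male cells (-0.97) and with finer clusters (-0.18). Those of the 11 in the NMP-like class were *Pou5f1* (0.12), *Gdf11* (-0.10) and *Sall4* (-0.025) in male cells alone, *Nr2f1* (-0.042) in female cells alone, and *Sall4* in thinned cells (-0.023) and without WT replicate 1 (-0.0007, against 0.043 without WT replicate 2). In the neuroepithelium-like class they were *Lin28b* (-0.35) and *Nr6a1* (-0.61) in male cells alone, *Nr2f1* (-0.95) and *Nr2f2* (-0.96) in female cells alone, and *Lin28b* with finer clusters (-0.024). Thinning left 4 of the 9 genes with libraries that did not overlap in the NMP-like class, against 8. With a stricter call of sex, *Nr6a1* in male NMP-like cells had a log2 ratio of 0.21. By *Hox* state, the mean log2 ratio of *Lin28a* was 0.080 and that of *Nr2f2* 0.50 with all UMIs, and that of *Nr2f2* 0.25 with *Hoxc10* alone; leaving out 1 library gave -0.098 to 0.051 for *Lin28a*, -0.065 to 0.048 for *Lin28b* and -0.47 to 0.88 for *Nr2f2*. The cause of these changes was not tested, beyond the cells each alternative leaves in.

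List genes called in the NMP-like class numbered 26 higher and 33 lower of 125 tested. These became 1 and 11 with a fold change of at least 2, 14 and 16 with DESeq2, 10 and 17 in male cells alone and 9 and 10 in thinned cells. In the neuroepithelium-like class 27 and 43 became 7 and 17 at that fold, 14 higher in male cells, 10 and 19 with finer clusters and 17 and 28 in thinned cells. In the pre-somitic-like class 0 and 18 became 6 and 11 with DESeq2, and 0 lower without a filter on low counts. Leaving out 1 library gave 18 to 28 and 25 to 35, 24 to 25 and 38 to 42, and 0 to 2 and 9 to 12 in the 3 classes.

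Replicate numbers did not pair the samples: same-numbered libraries deviated together with correlations of 0.0115, 0.0310 and 0.0186 in the 3 classes. With a replicate block the counts were 30 and 38, 31 and 43, and 0 and 13. Cells with few *Hox*-positive members (15 and 14 *Grhl3*-null NMP-like cells) and genes under 1 CPM, such as *Utf1*, limit what can be seen at this depth.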
